A study of Mus musculus with 34 samples.

Results

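Muscle that lacks both the insulin receptor and the IGF-1 receptor (MIGIRKO) was compared with muscle that lacks the IGF-1 receptor (MIGF1RKO), each set against floxed controls of its own line. For every gene the change in MIGIRKO relative to IRIGFRlox was taken first, then the change in MIGF1RKO relative to IGFRlox, and the MIGF1RKO change was subtracted from the MIGIRKO change. This difference of changes, on the log2 scale, asks what loss of the insulin receptor adds to loss of the IGF-1 receptor. It used 18 of the 34 libraries of the series and all 13646 genes that passed a filter on low counts, of 46071 gene IDs. Libraries were taken by genotype and genes by this filter.

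The insulin receptor and the IGF-1 receptor are related tyrosine kinases that bind insulin, IGF-1 and IGF-2 with different affinity. Both act through insulin receptor substrates and PI3 kinase to activate Akt. In muscle, Akt promotes glucose uptake and glycogen storage, raises protein synthesis through mTORC1, and keeps FoxO transcription factors out of the nucleus. FoxO factors in the nucleus drive genes of protein breakdown and autophagy.

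RNA came from powdered, mixed quadriceps and gastrocnemius muscle of mice on a mixed background of C57Blk6, C57Blk6J and 129, male unless stated otherwise. The 6 MIGIRKO libraries are from mice with floxed insulin receptor and IGF-1 receptor genes and a Cre transgene under the skeletal actin (Acta1) promoter, and the 3 IRIGFRlox libraries are from floxed littermates. The 5 MIGF1RKO libraries are from mice with the floxed IGF-1 receptor gene alone, whose Cre driver is not given in the sources used here, and the 4 IGFRlox libraries are from their floxed littermates. Each line was kept as its own colony, so the genotype and the colony of the knockouts cannot be told apart except through their own controls. The MIGIRKO line, controls included, was found heterozygous for Nnt, the mitochondrial transhydrogenase gene that is mutated in some C57Blk6J mice, and age is not given in the sources used here. Another line, lacking the insulin receptor alone (MIRKO, 4 libraries, Acta1 promoter; IRlox, 3 libraries), is set beside the difference at the end. Libraries are taken as 1 per mouse, and p-values measure the spread between libraries of a group.

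The 18 libraries held between 3295702 and 7581198 counts. Scaling factors for RNA composition lay between 1.17 and 1.32 in MIGIRKO and between 0.866 and 1.00 in IRIGFRlox, MIGF1RKO and IGFRlox. The choice of scaling therefore matters below. Levels are given as CPM, read counts scaled to the size of the library. The library labelled MIGIRKO 6 correlated most with a MIRKO library (Pearson r of log2 CPM over genes 0.973), against 0.935 to 0.952 with its own group. The count of called differences is therefore given with and without it.

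The targeted genes were examined first. Insr (chromosome 8, 3122061 to 3279617, GRCm38), which encodes the insulin receptor, was at 40.7, 52.2 and 69.8 CPM (lowest, median and highest of 6) in MIGIRKO, against 171, 159 and 191 CPM in IRIGFRlox. It was at 171, 174, 199, 204 and 208 CPM in MIGF1RKO, against 175, 255, 233 and 196 CPM in IGFRlox. All MIGIRKO libraries lay below every other library, and the MIGF1RKO and IGFRlox libraries overlapped. The difference of changes was −1.51 ± 0.21 (log2, SE; edgeR quasi-likelihood test, Benjamini-Hochberg adjusted p = 0.00011). Igf1r (chromosome 7, 67952827 to 68233668), which encodes the IGF-1 receptor, was at 15.1, 17.3 and 25.7 CPM (lowest, median, highest) in MIGIRKO, against 20.3, 18.9 and 16.5 CPM in IRIGFRlox. It was at 11.2, 10.8, 7.57, 9.92 and 9.67 CPM in MIGF1RKO, against 13.5, 16.9, 20.4 and 15.4 CPM in IGFRlox. MIGIRKO overlapped its controls, while every MIGF1RKO library lay below every IGFRlox library. The Igf1r change was 0.00 ± 0.21 in MIGIRKO (edgeR adjusted p = 0.99) and −0.75 ± 0.21 in MIGF1RKO (edgeR adjusted p = 0.10), with a difference of 0.75 ± 0.30 (edgeR adjusted p = 0.10). Counts over a whole gene need not show a deletion of part of it. These counts therefore show the loss of Insr RNA that separates the lines, but no lower Igf1r RNA in MIGIRKO, and the contrast is called the MIGIRKO minus MIGF1RKO difference from here on.

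The difference was called, at an edgeR adjusted p under 0.05, for 1171 genes, which is 8.58% of those tested. Of these, 501 were higher (3.67%) and 670 lower (4.91%) in MIGIRKO than the MIGF1RKO change accounts for, and 727 differed at least 2-fold. The MIGIRKO change alone was called for 4603 genes (33.7%), 2321 higher (17.0%) and 2282 lower (16.7%), and the MIGF1RKO change alone for 84 genes (0.616%). Of the MIGIRKO calls, 1123 (24.4%) were also called in the difference. Most of the called differences, 1114 genes, belonged to genes called in MIGIRKO and not in MIGF1RKO. A further 7 were called in both lines in the same direction, 2 in opposite directions, 6 in MIGF1RKO and not in MIGIRKO, and 42 in neither line. With library totals as the only scaling, 2167 genes were called, 1962 higher and 205 lower, and the median over all genes was 0.41 higher; 706 of the 1171 calls stayed. Without MIGIRKO 6, 1463 genes were called, and 1118 of the 1171 (95.5%) stayed in the same direction. Without IRIGFRlox 1 or IRIGFRlox 3 the count was 585 or 612.

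**Figure D1:**
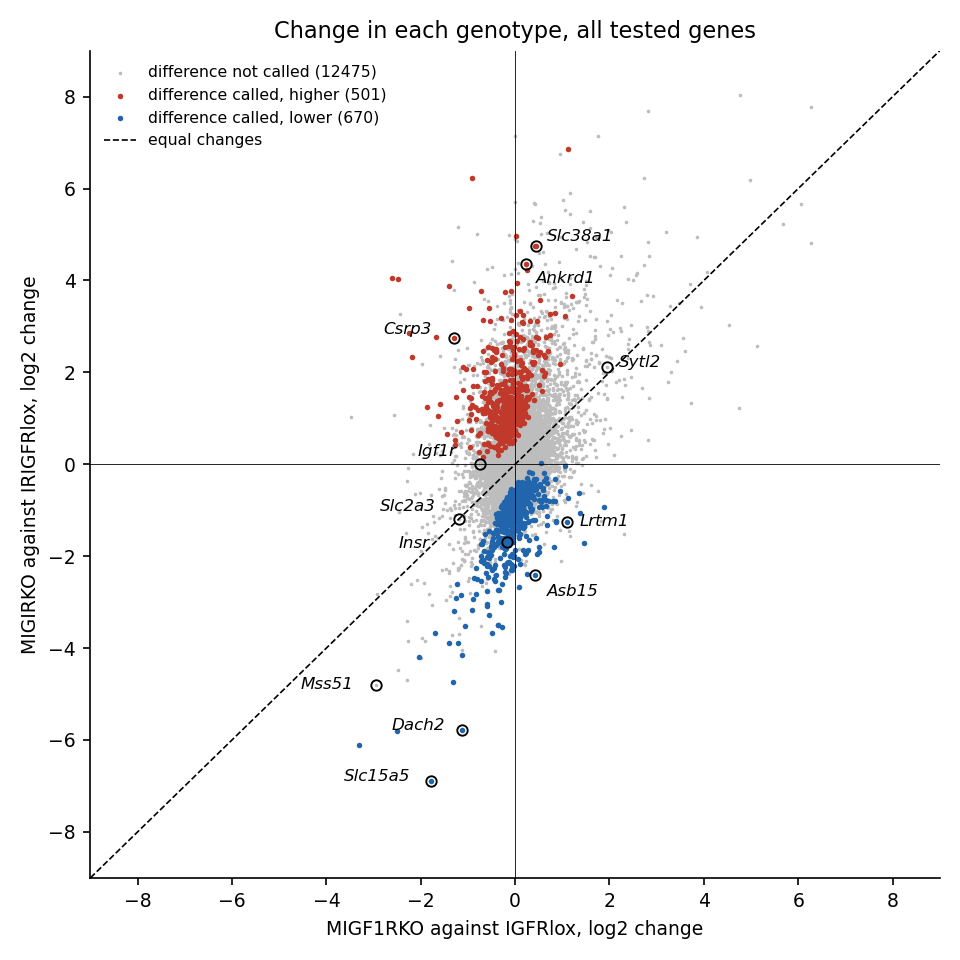
The log2 change in MIGIRKO over IRIGFRlox (vertical axis) is plotted against the log2 change in MIGF1RKO over IGFRlox (horizontal axis) for each of the 13646 tested genes. Red points are the 501 genes called higher in the difference and blue points the 670 called lower, grey points were not called, and the dashed line marks equal changes.

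The MIGIRKO changes were the wider of the pair. Their SD over all tested genes was 0.971 on the log2 scale, against 0.472 for the MIGF1RKO changes, and the median size of a change was 0.441 against 0.190. Over the tested genes, which do not vary independently, the changes of both lines had a Pearson r of 0.399 and a Spearman rho of 0.287. The difference can also be read as the knockouts compared directly minus the controls compared directly. Between MIGIRKO and MIGF1RKO 4385 genes were called (32.1%), among them 1085 of the 1171 in the same direction. Between IRIGFRlox and IGFRlox 3 genes were called (0.022%), 1 higher (0.00733%) and 2 lower (0.0147%). These were Vcp-rs, Hgsnat and 2900097C17Rik, none of them among the 1171. At an unadjusted edgeR p under 0.05 there were 1196 genes, so the 3 calls do not show that the controls were alike. A median of 77.6% of a called difference lay between the knockouts. The knockout comparison is a part of the difference by which these genes were chosen. Both the overlap and this share are therefore set in part by that choice. The control groups contributed more to the genes called higher, whose medians were 0.94 between the knockouts and −0.45 between the controls, than to the genes called lower, with −0.80 and 0.14. For 142 of the 1171, 87 called higher and 55 lower, the control part was at least as large as the knockout part.

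Genes of mitochondrial energy metabolism were among those called lower. In none of the lists of oxidative genes below was a member called higher. All 36 nuclear genes for subunits of complex I, the NADH dehydrogenase at the entry of the respiratory chain, were tested. Of these 7 were called lower and none higher, 35 had a difference below 0, and the median difference was −0.78, against 0.02 over all tested genes. The median change of these subunits was −0.81 in MIGIRKO and −0.02 in MIGF1RKO. Of 16 tested assembly factors of the complex, 5 were called lower, with a median of −0.67. Of 13 mRNAs encoded by the mitochondrial genome, 6 were called lower, with a median of −0.997. Each of these medians stayed below 0 with library totals as the only scaling, at −0.38, −0.26 and −0.59, although the median over all genes was then 0.43. The calls in these lists then numbered 1, 1 and 2, all lower.

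Ndufs1 (chromosome 1, 63143596 to 63176833), the largest subunit of complex I, was at 264, 287 and 301 CPM (lowest, median, highest) in MIGIRKO, against 519, 516 and 562 CPM in IRIGFRlox. It was at 598, 505, 474, 579 and 582 CPM in MIGF1RKO, against 534, 564, 554 and 552 CPM in IGFRlox. MIGIRKO stood below all other libraries, and the other 3 groups overlapped. The Ndufs1 difference was −0.90 ± 0.17 (edgeR adjusted p = 0.0025). Of the other called subunits, Ndufs8, Ndufa8, Ndufa10, Ndufa5 and Ndufv2 lay between −0.85 and −0.90. Among the assembly factors, Ndufaf5, which modifies a core subunit, differed by −1.15 ± 0.28 (edgeR adjusted p = 0.012), and Tmem186, Ecsit, Ndufaf6 and Ndufaf1 by −0.82, −0.80, −0.95 and −0.71. The mitochondrial genes mt-Nd2 and mt-Nd5, for membrane subunits of the same complex, differed by −1.46 ± 0.29 and −1.07 ± 0.24 (edgeR adjusted p = 0.0041 and 0.0076). Of the genes given here with other processing, the Ndufa8 and Ecsit calls ended without 4 and 3 of the 18 libraries left out one at a time (adjusted p up to 0.068 and 0.062). With library totals alone the Ndufs8, Ndufa8, Tmem186 and Ecsit calls ended (adjusted p = 0.15, 0.14, 0.14 and 0.14), while those of Ndufs1, Ndufaf5, mt-Nd2 and mt-Nd5 passed. Several of these genes overlap another gene on the opposite strand, Ndufs1 and mt-Nd5 among them, and the strand setting of the counting is not given in the sources used here.

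Complexes II to V, pyruvate oxidation and the tricarboxylic acid (TCA) cycle followed the same direction. Of 39 tested genes for complexes II to V, 5 were called lower (Atp5a1, Cyc1, Sdha, Atp5g1 and Atp5h), with a median of −0.68. Of 23 genes for pyruvate oxidation and the TCA cycle, 12 were called lower and none higher, all 23 lay below 0, and the median was −0.63. Dlat, the acetyl-transferring subunit of the pyruvate dehydrogenase complex, was at 104, 116 and 135 CPM (lowest, median, highest) in MIGIRKO, against 148, 192 and 211 CPM in IRIGFRlox. It was at 239, 209, 192, 200.4 and 217 CPM in MIGF1RKO, against 187, 160.1, 189.8 and 161 CPM in IGFRlox. MIGIRKO lay below every other library, and MIGF1RKO lay above every IGFRlox library. The Dlat difference was −0.92 ± 0.17 (edgeR adjusted p = 0.0020), made of −0.64 in MIGIRKO and 0.28 in MIGF1RKO. Idh3a, a subunit of the NAD-dependent isocitrate dehydrogenase, differed by −0.94 ± 0.22 (edgeR adjusted p = 0.0091). With library totals alone these list medians were −0.28 and −0.23, complexes II to V had 1 gene called higher and 0 lower, and pyruvate oxidation and the TCA cycle had 2 called lower. The Atp5a1, Cyc1 and Sdha calls then ended (adjusted p = 0.069, 0.13 and 0.54), and those of Cyc1 and Sdha also ended without IRIGFRlox 2 or IRIGFRlox 3.

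Fatty acid oxidation and the breakdown of branched-chain amino acids feed the cycle. Of 24 genes of fatty acid oxidation, 3 were called lower, with a median of −0.45 that shrank to −0.04 with library totals alone. Cpt2, which completes the import of fatty acids into mitochondria, was at 32.9, 35.4 and 44.1 CPM (lowest, median, highest) in MIGIRKO, against 64.3, 61.8 and 63.7 CPM in IRIGFRlox. It was at 67.4, 62.3, 75.4, 66.0 and 68.9 CPM in MIGF1RKO, against 68.3, 54.2, 56.4 and 61.3 CPM in IGFRlox. All MIGIRKO values lay below those of the other groups, and the difference was −0.96 ± 0.17 (edgeR adjusted p = 0.0016). The other called members were Etfdh, which passes electrons to the respiratory chain (−0.84), and Slc25a20, the carnitine carrier (−0.83), whose calls ended with library totals alone (adjusted p = 0.13 and 0.15). Of 16 genes of branched-chain amino acid breakdown, 3 were called lower, with a median of −0.50. With library totals alone the median shrank to −0.10, with 1 called lower. Bckdk, the kinase that inhibits the pathway's dehydrogenase, differed by −1.19 ± 0.26 (edgeR adjusted p = 0.0061). The Pccb and Acad8 calls (−0.87 and −0.67) ended without 2 and 10 of the 18 libraries left out one at a time. They also ended with library totals alone (edgeR adjusted p = 0.12 and 0.33).

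Among 15 regulators and oxygen carriers of oxidative muscle, 4 were called lower and none higher, with a median of −0.43 (−0.03 with library totals alone). Mb (chromosome 15, 77015487 to 77050670), which encodes myoglobin, was at 159, 201 and 490.0 CPM (lowest, median, highest) in MIGIRKO, against 1107, 1554 and 1104 CPM in IRIGFRlox. It was at 1019, 734, 951, 768 and 911 CPM in MIGF1RKO, against 1271, 672, 1019 and 1097 CPM in IGFRlox. MIGIRKO lay below all other libraries, with MIGIRKO 6 its highest value. The Mb difference was −2.14 ± 0.37 (edgeR adjusted p = 0.0016), and −2.46 without MIGIRKO 6. Genes for the estrogen-related receptors, nuclear receptors that drive oxidative genes, were also called lower: Esrrb by −2.19 ± 0.48 (edgeR adjusted p = 0.0066) and Esrra by −0.95 ± 0.26 (edgeR adjusted p = 0.024). Ppargc1a, the coactivator PGC-1 alpha that works with them, had a difference of −0.01 ± 0.34 (edgeR adjusted p = 0.99). Perm1, a muscle regulator induced by PGC-1 and estrogen-related receptors, was at 115, 158 and 187 CPM (lowest, median, highest) in MIGIRKO, against 285, 328 and 308 CPM in IRIGFRlox. It was at 270.1, 239, 242, 313 and 349 CPM in MIGF1RKO, against 275, 249.9, 343 and 299.7 CPM in IGFRlox. MIGIRKO again stood below the rest. The Perm1 difference was −0.95 ± 0.23 (edgeR adjusted p = 0.011), a call that ended with library totals alone (−0.54, adjusted p = 0.077).

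The core motif of the estrogen-related receptors, AAGGTCA or its reverse complement TGACCTT, was looked for on both strands in RefSeq promoter windows of GRCm38.p6, which run from 250 bases before to 50 bases after a gene's start. It was present in 4.72% of all 32851 windows. By gene, it was present for 4.01% of 10296 tested genes with a window, 38 of 510 genes called lower (7.45%) and 15 of 381 genes called higher (3.94%). In the 7 lists of nuclear oxidative genes, from complex I to the regulators above, 11 of 144 genes held it (7.64%), and 2 of the 32 called lower. Of the 78 called named genes with a window, 3 held the motif, and their windows are shown so that the position of the motif, in capitals, can be seen. Perm1 (chr4:156215677-156215976, plus strand) has it 202 bases before the start, Col9a1 (chr1:24177360-24177659, plus strand) 28 bases before, and Abcg2 (chr6:58584283-58584582, plus strand) 122 bases before. Col9a1 has 2 windows and Abcg2 3, of which the one with the motif is given.
Perm1: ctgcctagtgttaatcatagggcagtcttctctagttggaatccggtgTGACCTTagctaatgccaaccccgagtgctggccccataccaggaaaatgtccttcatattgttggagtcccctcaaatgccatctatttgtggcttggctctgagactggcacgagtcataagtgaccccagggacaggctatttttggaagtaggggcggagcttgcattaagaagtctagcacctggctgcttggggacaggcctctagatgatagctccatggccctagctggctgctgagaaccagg
Col9a1: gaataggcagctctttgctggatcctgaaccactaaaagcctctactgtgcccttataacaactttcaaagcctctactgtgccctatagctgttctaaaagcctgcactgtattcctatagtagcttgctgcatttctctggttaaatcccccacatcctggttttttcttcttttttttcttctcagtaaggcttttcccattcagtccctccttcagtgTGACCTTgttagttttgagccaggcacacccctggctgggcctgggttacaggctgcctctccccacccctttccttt
Abcg2: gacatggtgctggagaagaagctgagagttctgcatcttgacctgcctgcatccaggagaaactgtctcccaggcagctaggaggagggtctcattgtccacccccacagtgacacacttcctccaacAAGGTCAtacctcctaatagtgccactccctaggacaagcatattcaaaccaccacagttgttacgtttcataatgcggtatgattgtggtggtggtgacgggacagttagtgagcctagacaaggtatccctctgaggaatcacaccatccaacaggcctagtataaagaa
These genes did not move together: the difference was −0.95 for Perm1, −3.30 for Col9a1 and 0.89 for Abcg2. The FoxO core motif, GTAAACA or TGTTTAC, was present in 3.65% of all windows, for 3.12% of tested genes, 18 of 381 genes called higher (4.72%) and 14 of 510 called lower (2.75%), and in none of the 78. A match is a string of letters and not a shown binding site.

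**Figure D2:**
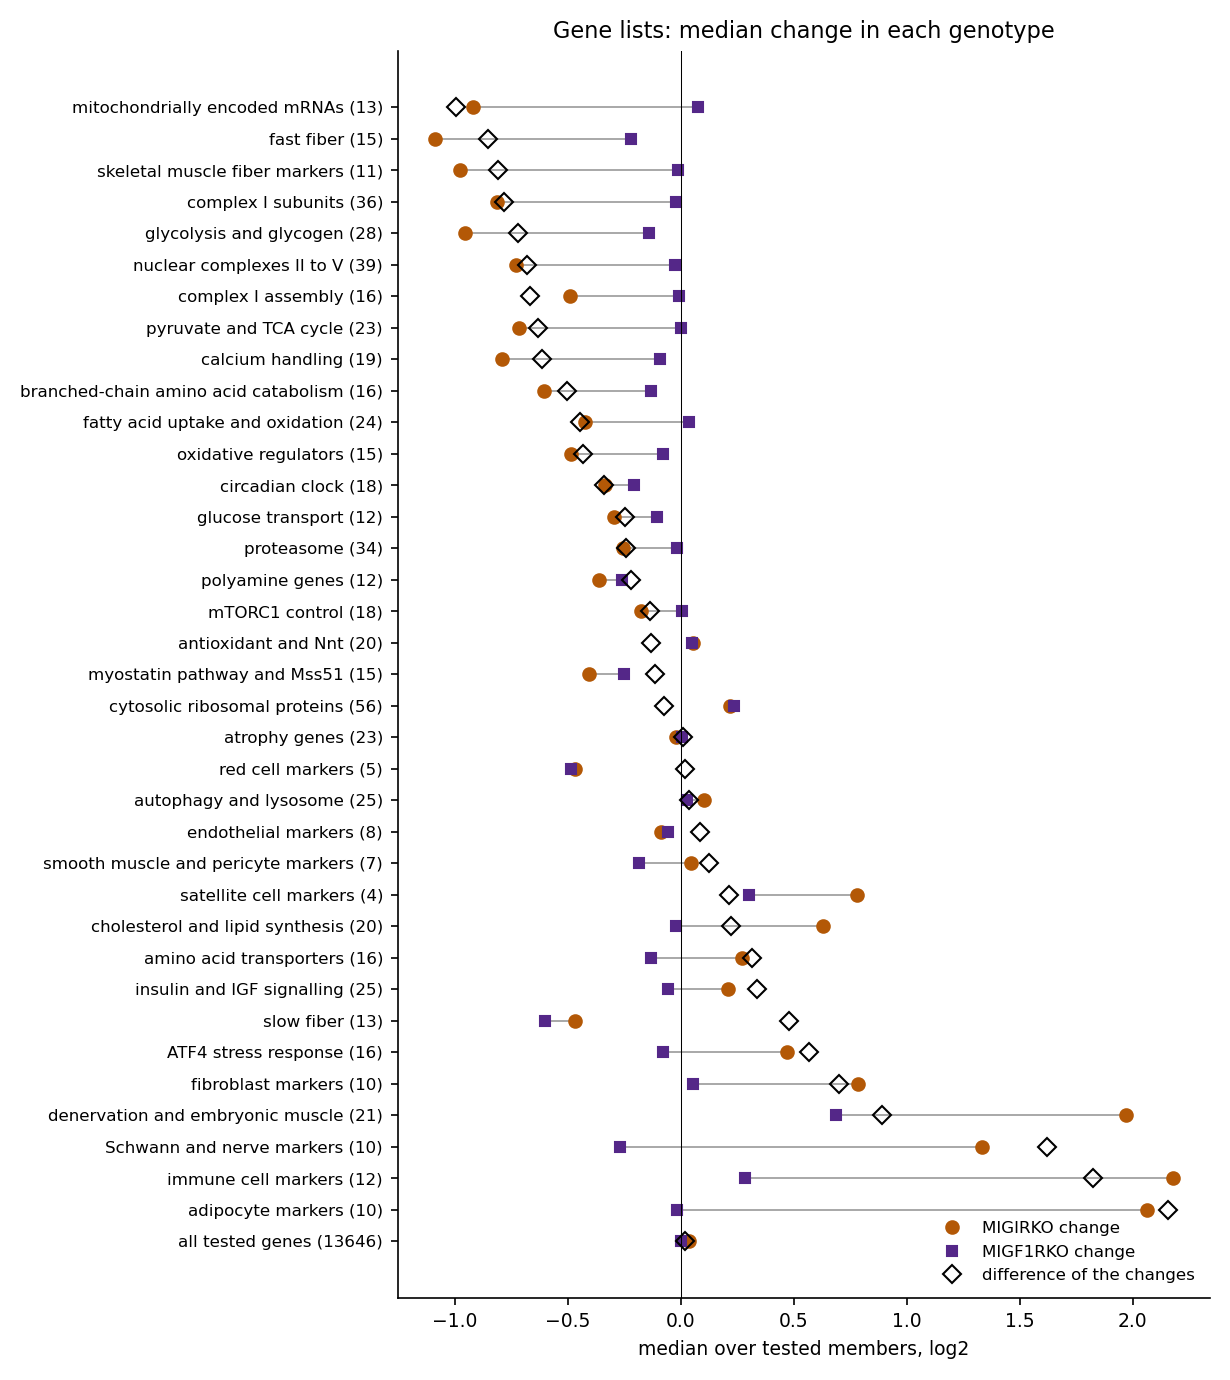
Median log2 change of each gene list and of all tested genes, with circles for MIGIRKO over IRIGFRlox, squares for MIGF1RKO over IGFRlox and open diamonds for the difference. The oxidative, glycolytic, calcium handling and fast fiber lists lie left of 0 in MIGIRKO and near 0 in MIGF1RKO, while adipocyte, immune and Schwann cell markers lie right of 0 in the difference.

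Genes of glucose use outside mitochondria were also among the calls. Of 28 genes of glycolysis and glycogen metabolism, 9 were called lower and none higher, with a median difference of −0.72. With library totals alone the median was −0.31, with 5 called lower and 1 higher. Pgm1, phosphoglucomutase, which links glycogen to glycolysis, was at 600.1, 756 and 936 CPM (lowest, median, highest) in MIGIRKO, against 2257, 1900.4 and 2041 CPM in IRIGFRlox. It was at 1635, 2101, 1684, 1981 and 2029 CPM in MIGF1RKO, against 2162, 1847, 1998 and 2079.8 CPM in IGFRlox. MIGIRKO did not overlap any other group, and the difference was −1.35 ± 0.29 (edgeR adjusted p = 0.0055). Phkg1 and Phkb, subunits of the kinase that activates glycogen breakdown, differed by −1.12 ± 0.24 and −1.33 ± 0.31 (edgeR adjusted p = 0.0058 and 0.0095). Among 12 genes of glucose transport, 2 were called lower, and the list's median of −0.25 turned to 0.15 with library totals alone, with 1 called lower and 2 higher. Tbc1d1, which restrains the movement of GLUT4 to the surface, was at 16.3, 19.6 and 31.4 CPM (lowest, median, highest) in MIGIRKO, against 74.9, 68.1 and 117 CPM in IRIGFRlox. It was at 54.4, 38.4, 63.9, 58.8 and 70.1 CPM in MIGF1RKO, against 51.6, 48.8, 73.2 and 62.1 CPM in IGFRlox. MIGIRKO was the only group apart, and the difference was −1.95 ± 0.37 (edgeR adjusted p = 0.0029). The other call was Rab10, a small GTPase of GLUT4 traffic (−0.59), which ended without 3 of the 18 libraries left out one at a time (adjusted p up to 0.063) and with library totals alone (adjusted p = 0.33), while Slc2a4, which encodes GLUT4 itself, had −0.49 ± 0.25 (edgeR adjusted p = 0.21).

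Some contractile and calcium handling genes of fast fibers were called lower. Of 15 fast fiber genes, 4 were called lower (Myh4, Mybpc2, Atp2a1 and Myl1), with a median of −0.85, and of 19 genes of calcium handling 9 were called lower, with a median of −0.61. With library totals alone these medians were −0.45 and −0.20, with 1 and 3 genes called lower. The Mybpc2 and Atp2a1 calls ended without 7 and 10 of the 18 libraries left out one at a time (adjusted p up to 0.098 and 0.070), and with library totals alone (adjusted p = 0.068 and 0.094). Myh4, the myosin heavy chain of the fastest fibers, was at 15780.2, 29354 and 33672 CPM (lowest, median, highest) in MIGIRKO, against 79074, 79056 and 73443 CPM in IRIGFRlox. It was at 50787, 58653, 58605, 54034 and 53554 CPM in MIGF1RKO, against 71276, 55239.7, 65101 and 68353 CPM in IGFRlox. MIGIRKO lay below all others, and the difference was −1.23 ± 0.29 (edgeR adjusted p = 0.010). Hrc, a calcium-binding protein of the sarcoplasmic reticulum, differed by −1.20 ± 0.29 (edgeR adjusted p = 0.011). Stac3, needed to couple excitation to contraction, and Mrln, a peptide that inhibits the calcium pump, differed by −1.31 and −1.59, calls that each ended without 1 IRIGFRlox library (adjusted p = 0.056 and 0.051). Among 13 slow fiber genes only Csrp3 was called, higher.

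Genes of the insulin and IGF pathway itself went in both directions. Of 25 tested, 2 were called higher and 4 lower, with a median of 0.34, and 5 and 3 without MIGIRKO 6. Among the binding proteins that hold IGFs outside the cell, Igfbp5 (chromosome 1, 72857932 to 72874884) was at 533, 614 and 764 CPM (lowest, median, highest) in MIGIRKO, against 2671, 1895 and 2112 CPM in IRIGFRlox. It was at 1479.8, 2053, 1784, 1469.7 and 1459.8 CPM in MIGF1RKO, against 2085, 2147, 1714 and 1619 CPM in IGFRlox. MIGIRKO was below every other library, and MIGF1RKO overlapped its controls. The Igfbp5 difference was −1.63 ± 0.24 (edgeR adjusted p = 0.00021), whereas Igfbp4, of the same family, was higher by 0.92 ± 0.21 (edgeR adjusted p = 0.0084). Grb14, an adaptor that inhibits the kinase of the insulin receptor, was at 1.21, 2.38 and 4.06 CPM (lowest, median, highest) in MIGIRKO, against 18.6, 23.9 and 24.8 CPM in IRIGFRlox. It was at 12.8, 14.2, 13.6, 18.9 and 20.5 CPM in MIGF1RKO, against 24.0, 24.0, 22.3 and 26.2 CPM in IGFRlox. MIGIRKO lay below every other library, and MIGF1RKO lay below every IGFRlox library. The Grb14 change was −3.09 ± 0.30 in MIGIRKO and −0.59 ± 0.27 in MIGF1RKO, and the difference was −2.50 ± 0.41 (edgeR adjusted p = 0.00097). Downstream, Foxo6 and Foxo4 were called lower (−1.64 ± 0.41 and −0.73 ± 0.23, edgeR adjusted p = 0.013 and 0.045). Foxo1 and Foxo3 were not called, at 0.57 ± 0.47 and 0.49 ± 0.32 (edgeR adjusted p = 0.46 and 0.33).

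Calls in the lists of protein turnover were all lower, a direction that turned with the scaling. Over all tested genes 4.91% were called lower and 3.67% higher, so a single call in a list is not read as a result about that list. With library totals alone the mTORC1, atrophy, proteasome and autophagy lists had 1, 4, 2 and 7 genes called higher, and 1, 0, 0 and 0 called lower by edgeR. Of 18 genes of mTORC1 signalling, 4 were called lower, with a median of −0.14 that turned to 0.27 with library totals alone. Ddit4l, an inhibitor of mTORC1 in muscle, was at 114, 135 and 158 CPM (lowest, median, highest) in MIGIRKO, against 505, 333 and 437 CPM in IRIGFRlox. It was at 379, 543, 375, 374 and 377 CPM in MIGF1RKO, against 319, 459, 276 and 286 CPM in IGFRlox. MIGIRKO lay below all other libraries, and the difference was −1.95 ± 0.39 (edgeR adjusted p = 0.0041). The other 3 were Rragd, Castor2 and Rps6kb1, between −0.55 and −0.79, and the Rragd and Castor2 calls ended without 4 and 5 of the 18 libraries left out one at a time. Of 23 genes of muscle atrophy, 3 were called lower (Fbxo32, Ulk1 and Mstn) and the median was 0.01. Fbxo32, the atrophy ubiquitin ligase atrogin-1 and a FoxO target, differed by −1.38 ± 0.39 (edgeR adjusted p = 0.025). The Fbxo32 call ended without 4 of the 18 libraries left out one at a time (adjusted p up to 0.099) and with library totals alone (−0.98, adjusted p = 0.065). Trim63, the other classic atrophy ligase, had −0.52 ± 0.49 (edgeR adjusted p = 0.53). Of 34 proteasome genes 1 was called, Psme4, and of 25 autophagy genes 3 (Ulk1, Pink1 and Tfeb), all lower. These calls were less firm: those of Psme4, Ulk1, Pink1 and Tfeb ended without 11, 7, 9 and 13 of the 18 libraries left out one at a time (adjusted p up to 0.12, 0.090, 0.100 and 0.17), and with library totals alone (adjusted p = 0.15, 0.22, 0.14 and 0.11). Of 20 antioxidant genes Sod2, the mitochondrial superoxide dismutase, was called lower (−1.0 ± 0.20, edgeR adjusted p = 0.0036). None of 56 cytoplasmic ribosomal protein genes was called by edgeR. Their median change was 0.22 in MIGIRKO and 0.24 in MIGF1RKO.

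The largest differences below 0 included genes with almost no reads in MIGIRKO. Slc15a5, of the peptide transporter family, was at 0, 0 and 0.959 CPM (lowest, median, highest) in MIGIRKO, against 22.3, 26.2 and 30.8 CPM in IRIGFRlox. It was at 2.30, 7.18, 2.42, 5.95 and 8.50 CPM in MIGF1RKO, against 27.3, 10.9, 19.5 and 15.8 CPM in IGFRlox. Both knockouts lay below their own controls without overlap, MIGIRKO the lower of them. The fitted difference was −5.11 ± 0.96 (edgeR adjusted p = 0.0026), a size that depends on the prior count for a group with so few reads. Dach2, a corepressor that restrains myogenin in innervated mouse muscle, reached at most 0.160 CPM in MIGIRKO, and its fitted difference was −4.66 ± 1.04 (edgeR adjusted p = 0.0072). Kcng4, a modifying subunit of voltage-gated potassium channels, was at 3.10, 4.52 and 17.1 CPM (lowest, median, highest) in MIGIRKO, against 80.3, 82.3 and 72.3 CPM in IRIGFRlox. It was at 45.2, 58.3, 44.5, 67.0 and 81.5 CPM in MIGF1RKO, against 81.2, 64.2, 80.9 and 61.7 CPM in IGFRlox. MIGIRKO was far below the rest, which overlapped, and the difference was −3.27 ± 0.56 (edgeR adjusted p = 0.0016). The cadherin Cdh4 (−3.41 ± 0.76), the collagen chain Col9a1 (−3.30 ± 0.95), and the transcription factors Tfcp2l1 (−3.18 ± 0.64) and Barx2 (−3.13 ± 0.78) were also among the largest. The Col9a1 call ended without 3 of the 18 libraries left out one at a time (adjusted p up to 0.059).

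Asb15 (chromosome 6, 24528144 to 24573164), of a muscle-enriched family of substrate receptors for ubiquitin ligases, had one of the smallest adjusted p-values. It was at 26.9, 33.0 and 57.7 CPM (lowest, median, highest) in MIGIRKO, against 224, 176 and 198 CPM in IRIGFRlox. It was at 329.8, 266, 195, 233 and 245 CPM in MIGF1RKO, against 188, 230.2, 164 and 177 CPM in IGFRlox. MIGIRKO lay below all other libraries, and MIGF1RKO overlapped IGFRlox at its upper end. The difference was −2.84 ± 0.37 (edgeR adjusted p = 0.00010), made of −2.42 in MIGIRKO and 0.42 in MIGF1RKO.

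**Figure D3:**
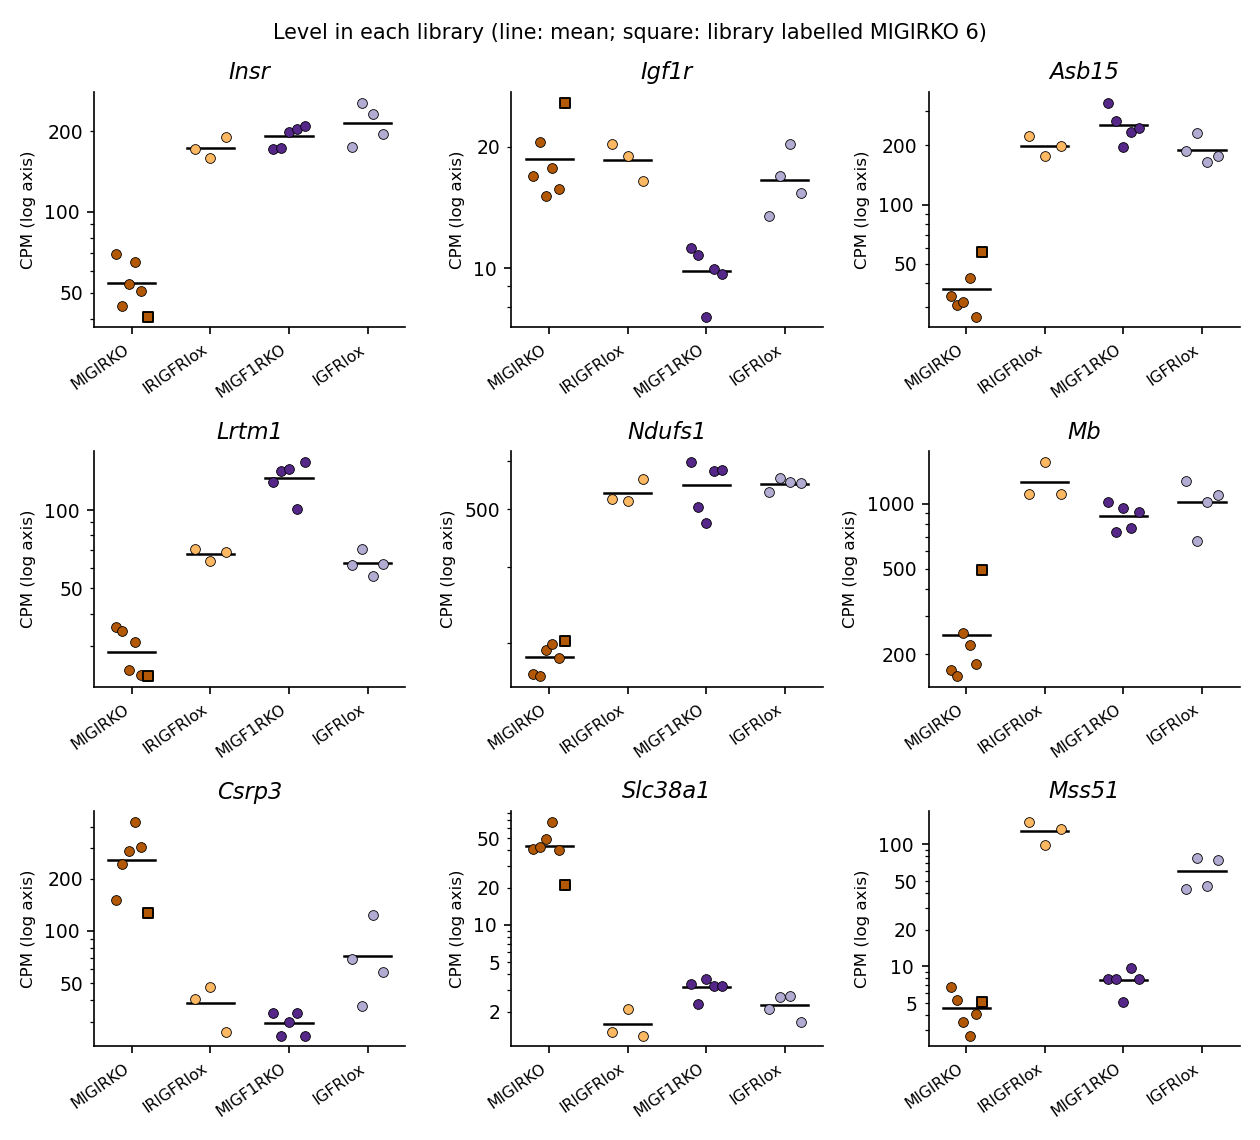
CPM of 9 genes in each library (log axis), with MIGIRKO, IRIGFRlox, MIGF1RKO and IGFRlox from left to right, lines at the group means and a square for MIGIRKO 6. MIGIRKO stands apart from the other 3 groups for Insr, Asb15, Ndufs1, Mb, Csrp3 and Slc38a1, MIGF1RKO stands above the rest for Lrtm1, and both knockouts stand below their controls for Mss51.

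The largest differences above 0 included Ankrd1 and Csrp3, both for proteins of the sarcomere. Ankrd1, a titin-binding protein that responds to stretch, was at 99.4, 142 and 216 CPM (lowest, median, highest) in MIGIRKO, against 3.97, 6.70 and 11.1 CPM in IRIGFRlox. It was at 17.6, 8.03, 24.2, 8.43 and 9.97 CPM in MIGF1RKO, against 5.69, 10.5, 22.7 and 6.03 CPM in IGFRlox. The MIGIRKO libraries were all above the others, and the difference was 4.12 ± 0.93 (edgeR adjusted p = 0.0090). Csrp3, the muscle LIM protein, was at 127, 268 and 427 CPM (lowest, median, highest) in MIGIRKO, against 40.5, 47.8 and 26.3 CPM in IRIGFRlox. It was at 33.4, 24.9, 30.0, 33.7 and 24.9 CPM in MIGF1RKO, against 68.9, 37.1, 124 and 57.8 CPM in IGFRlox. Csrp3 thus stood above the controls in every MIGIRKO library and below the controls in every MIGF1RKO library. The changes were 2.75 ± 0.53 in MIGIRKO and −1.29 ± 0.46 in MIGF1RKO, of which the second was not called (edgeR adjusted p = 0.24), and the difference was 4.04 ± 0.69 (edgeR adjusted p = 0.0016). Differences between 3.85 and 4.33 were also called for Mup10, of the multi-copy major urinary protein family, the carboxylesterase gene Ces1f, the noncoding RNA Mirg, the metalloproteinase inhibitor Timp1 and the chemokine Cxcl9. These calls were less firm and ended without 3, 3, 2, 11 and 7 of the 18 libraries left out one at a time.

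Of 16 amino acid transporter genes, 4 were called higher and none lower, with a median of 0.31. Slc38a1, a glutamine transporter, was at 20.8, 41.7 and 67.9 CPM (lowest, median, highest) in MIGIRKO, against 1.37, 2.10 and 1.28 CPM in IRIGFRlox. It was at 3.32, 2.32, 3.64, 3.22 and 3.22 CPM in MIGF1RKO, against 2.10, 2.62, 2.68 and 1.66 CPM in IGFRlox. The lowest value in MIGIRKO was that of MIGIRKO 6, and it still lay above every library of the other groups. The difference was 4.31 ± 1.12 (edgeR adjusted p = 0.019), with an adjusted p of 0.0502 without IRIGFRlox 1. Slc3a2 and Slc7a5, the 2 chains of a large neutral amino acid exchanger, differed by 1.02 ± 0.25 and 1.72 ± 0.51 (edgeR adjusted p = 0.010 and 0.032), and Slc1a5, another glutamine carrier, by 1.64 ± 0.39 (edgeR adjusted p = 0.010). Of 16 tested genes of the stress response around ATF4, a factor of the amino acid response, 2 were called higher, Eif2ak3 and Phgdh. Their calls ended without 4 and 9 of the 18 libraries. In the polyamine list, Amd1 and Amd2, near-identical copies of S-adenosylmethionine decarboxylase whose reads cannot be separated with certainty, were called lower (−2.69 ± 0.67 and −2.45 ± 0.58). Azin1, which protects ornithine decarboxylase from breakdown, was called higher (1.18 ± 0.33), a call that ended without 3 of the 18 libraries.

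Of 21 genes that respond to denervation, 2 were called higher, Myog and Runx1, and Dach2 lower, with a median of 0.89; the list's median change was 1.97 in MIGIRKO and 0.69 in MIGF1RKO. Myog, the transcription factor myogenin, was at 16.2, 22.6 and 31.8 CPM (lowest, median, highest) in MIGIRKO, against 3.21, 2.49 and 1.5 CPM in IRIGFRlox. It was at 6.64, 5.28, 5.45, 2.48 and 2.35 CPM in MIGF1RKO, against 3.30, 2.14, 3.04 and 2.29 CPM in IGFRlox. MIGIRKO lay above every other library, and MIGF1RKO overlapped IGFRlox. The difference was 2.54 ± 0.67 (edgeR adjusted p = 0.019), and the call ended without IRIGFRlox 3 (adjusted p = 0.056), that of Runx1 without 4 of the 18 libraries. In the myostatin and activin list, Fst and Fstl1, for follistatin and a related protein, were called higher (1.37 and 1.31) and Mstn, for myostatin, lower (−1.70). The Fst and Fstl1 calls ended without 3 and 2 of the 18 libraries, and the Mstn call without 10 of the 18 libraries left out one at a time (adjusted p up to 0.11).

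Genes that mark other cell types of muscle moved with these results. All 10 tested adipocyte markers had a difference above 0, with 6 called higher and a median of 2.16; their summed level was 1581, 2326 and 3198 CPM (lowest, median, highest) in MIGIRKO, against 1520.0 to 1683 CPM in IRIGFRlox, 1719 to 2189 CPM in MIGF1RKO and 1862 to 2279 CPM in IGFRlox. Adipoq, which encodes the fat cell hormone adiponectin, was at 30.3, 50.8 and 70.1 CPM (lowest, median, highest) in MIGIRKO, against 8.85, 8.42 and 8.13 CPM in IRIGFRlox. It was at 9.96, 8.87, 23.6, 20.3 and 7.91 CPM in MIGF1RKO, against 15.9, 8.56, 20.7 and 11.4 CPM in IGFRlox. MIGIRKO exceeded every other library, and the difference was 2.57 ± 0.57 (edgeR adjusted p = 0.0072). Of 20 genes of lipid synthesis, 4 were called higher (Elovl5, Acly, Fasn and Elovl6). Acly, which makes cytosolic acetyl-CoA, differed by 1.62 ± 0.35 (edgeR adjusted p = 0.0060). Fasn, the fatty acid synthase, differed by 2.92 ± 0.78 (edgeR adjusted p = 0.022), with a median of 412 CPM and a range of 122 to 1034 CPM within MIGIRKO. The part of fat cell RNA in these lipid genes was not tested.

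All 12 immune markers had a difference above 0, with 3 called higher (Cd74, C1qa and Mrc1) and a median of 1.83, and 1 called without MIGIRKO 6. The Cd74, C1qa and Mrc1 calls ended without 5, 13 and 15 of the 18 libraries left out one at a time. Their summed level was 849 to 2378 CPM in MIGIRKO, against 245 to 383 CPM in IRIGFRlox, 406 to 679 CPM in MIGF1RKO and 395 to 440.0 CPM in IGFRlox. All 10 Schwann cell markers lay above 0, with 4 called, Pmp22, Mbp and Mal among them, and a median of 1.62; the Pmp22 and Mbp calls ended without 4 and 6 of the 18 libraries. Their sum was 389 to 741 CPM in MIGIRKO, against 189.5 to 295 CPM in IRIGFRlox, 215 to 484 CPM in MIGF1RKO and 318 to 653 CPM in IGFRlox. All 10 fibroblast markers did so too, with Postn and Lum called, which ended without 2 and 3 of the 18 libraries, and a median of 0.70. Of 7 smooth muscle markers Acta2 and Tagln were called higher, the Tagln call ending without 10 of the 18 libraries, with a median of 0.13. Vcam1 was the 1 satellite cell marker called of 4 (1.88 ± 0.42, edgeR adjusted p = 0.0075), and endothelial and red cell markers had no calls by edgeR among 8 and 5 genes. Skeletal muscle fiber markers had 4 of 11 called lower (Mb, Myh4, Ttn and Ckm) and a median of −0.81. In whole muscle, fewer fibers and less RNA per fiber cannot be told apart, nor can more cells of another type and more RNA per cell. The fiber markers summed to 68418 to 108679 CPM in MIGIRKO, against 178742 to 195657 CPM in IRIGFRlox, 140972 to 172682 CPM in MIGF1RKO and 150258 to 190554 CPM in IGFRlox. Their part in the lower oxidative and contractile genes was not tested.

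A small set of genes changed in opposite directions. Lrtm1 (chromosome 14, 29018208 to 29033645, on the opposite strand within Cacna2d3), which encodes a membrane protein with leucine-rich repeats, was at 23.0, 27.8 and 35.5 CPM (lowest, median, highest) in MIGIRKO, against 70.7, 63.5 and 69.3 CPM in IRIGFRlox. It was at 128, 141, 144, 101 and 153 CPM in MIGF1RKO, against 61.4, 70.9, 55.9 and 62.1 CPM in IGFRlox. The controls of both lines shared one range, MIGIRKO lay below it and MIGF1RKO above it. The change was −1.25 ± 0.21 in MIGIRKO (edgeR adjusted p = 3.3e-05) and 1.09 ± 0.20 in MIGF1RKO (edgeR adjusted p = 0.0056), and the difference of −2.34 ± 0.29 had an edgeR adjusted p of 3.9e-05. Mpp3, a membrane scaffold protein, was at 18.4, 28.4 and 33.9 CPM (lowest, median, highest) in MIGIRKO, against 49.5, 40.4 and 44.5 CPM in IRIGFRlox. It was at 77.6, 73.7, 79.7, 58.5 and 52.5 CPM in MIGF1RKO, against 34.2, 30.7, 28.8 and 32.8 CPM in IGFRlox. Here too each knockout left its controls without overlap, in opposite directions, and the difference was −1.85 ± 0.35 (edgeR adjusted p = 0.0025).

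Genes called in MIGF1RKO and not in MIGIRKO included Abcg2, a transporter that pumps drugs and urate out of cells. It was at 32.9, 37.9 and 48.6 CPM (lowest, median, highest) in MIGIRKO, against 31.7, 32.9 and 33.4 CPM in IRIGFRlox. It was at 19.4, 24.7, 20.9, 24.8 and 24.3 CPM in MIGF1RKO, against 37.2, 32.8, 30.5 and 37.4 CPM in IGFRlox. The MIGF1RKO libraries lay below all others, and MIGIRKO overlapped its controls. The difference was 0.89 ± 0.19 (edgeR adjusted p = 0.0060). Glb1l2, a relative of beta-galactosidase, had a difference of 1.69 ± 0.42 (edgeR adjusted p = 0.013), of which 0.42 was the change in MIGIRKO and −1.27 that in MIGF1RKO. Among the 42 genes called in neither line alone was Ccng1, a cyclin G gene induced by p53, at 765 to 1330.3 CPM in MIGIRKO, 1291 to 1789.5 CPM in IRIGFRlox, 2442 to 3226 CPM in MIGF1RKO and 1262 to 2006 CPM in IGFRlox. Its difference of −1.09 ± 0.24 (edgeR adjusted p = 0.0072) lay largely in the MIGF1RKO libraries, which exceeded all others, and the call ended with library totals alone (−0.67, adjusted p = 0.055).

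Genes that changed in both lines in the same direction numbered 62, which is 73.8% of the MIGF1RKO calls and 1.35% of the MIGIRKO calls. For 7 of them the difference was called as well. Aldh1a1, an enzyme of retinoic acid synthesis, was at 16.7, 24.7 and 30.0 CPM (lowest, median, highest) in MIGIRKO, against 213, 164 and 160.4 CPM in IRIGFRlox. It was at 78.6, 74.3, 54.5, 99.97 and 90.0 CPM in MIGF1RKO, against 160.4, 137, 160.2 and 135 CPM in IGFRlox. The order was MIGIRKO lowest, MIGF1RKO between, and the controls highest, with no overlap among these 3 levels. The Aldh1a1 difference was −2.03 ± 0.29 (edgeR adjusted p = 0.00019). Slc30a2, a zinc transporter, kept the same order, with changes of −3.67 ± 0.31 in MIGIRKO and −1.71 ± 0.29 in MIGF1RKO and a difference of −1.97 ± 0.43 (edgeR adjusted p = 0.0062). Ehd4, a protein of endosomal recycling, ran the other way, with changes of 2.19 and 0.96 and a difference of 1.23 ± 0.33 (edgeR adjusted p = 0.020; 0.059 without IRIGFRlox 1).

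For the other 55 of the 62 no difference was called, which does not show equal changes. Sytl2, an effector of Rab27 in vesicle transport, was at 13.4, 18.6 and 25.7 CPM (lowest, median, highest) in MIGIRKO, against 4.73, 4.59 and 3.64 CPM in IRIGFRlox. It was at 20.9, 15.4, 20.0, 12.4 and 14.9 CPM in MIGF1RKO, against 4.20, 3.81, 4.29 and 4.99 CPM in IGFRlox. The knockouts shared one range above the controls, and the difference was 0.18 with a 95% interval of −0.60 to 0.96. Slc2a3, the glucose transporter GLUT3, fell by 1.19 in MIGIRKO and by 1.18 in MIGF1RKO on the log2 scale, with a difference of −0.01 and a 95% interval of −0.64 to 0.62. Mss51, a muscle protein linked to mitochondria, was at 2.71, 4.56 and 6.78 CPM (lowest, median, highest) in MIGIRKO, against 153, 98.0 and 133 CPM in IRIGFRlox. It was at 7.91, 7.81, 5.15, 9.67 and 7.91 CPM in MIGF1RKO, against 43.2, 77.1, 45.4 and 74.2 CPM in IGFRlox. The knockouts ended at similar low levels and the controls differed, with a difference of −1.85 ± 0.64 that missed the threshold (edgeR adjusted p = 0.065) and passed it when the fit held the 4 groups alone (adjusted p = 0.0021).

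The MIRKO line, which lacks the insulin receptor alone, gives a separate view on other mice and controls. In MIRKO over IRlox 170 genes were called (1.25%), 52 higher (0.381%) and 118 lower (0.865%). Scaling factors lay between 1.05 and 1.27 in MIRKO and between 0.926 and 0.986 in IRlox. With library totals as the only scaling, 229 genes were called higher and 50 lower, so this split depends on the scaling. The count of 170 fell without MIRKO 4, which lies close to MIGIRKO libraries, to 1 gene called higher and 12 lower. Without both MIRKO 4 and MIGIRKO 6 it was 8 and 25. No other MIRKO library was left out alone, so whether the fall is particular to MIRKO 4 was not tested. The sign of the MIRKO change was that of the difference for 1102 of the 1171 genes (94.1%), against 72.7% of all tested genes. With library totals alone the shares were 96.1% of the 2167 genes then called and 80.2% of all tested genes. By the main scaling, the signs matched for 462 of the 501 called higher (92.2%) and 640 of the 670 called lower (95.5%). The median in the difference, by which these genes were chosen, was 1.41 for genes called higher and −0.97 for genes called lower, and the same genes had medians of 0.45 and −0.45 in MIRKO. Of the 1171, 16 were called higher and 80 lower in MIRKO, none against the sign of the difference. Without MIRKO 4 the difference was called for 1333 genes, of which 0 were called higher and 11 lower in MIRKO by edgeR, and 89.4% had the same sign, against 70.3% of all tested. Without MIRKO 4 and MIGIRKO 6, which each lie close to libraries of the other genotype, it was called for 1650, of which 2 and 20 were called in MIRKO and 87.2% had the same sign, against 70.1% of all tested. In MIRKO, Insr changed by −1.83 ± 0.17, Aldh1a1 by −1.95 ± 0.23, Mb by −1.67 ± 0.29 and Igfbp5 by −1.07 ± 0.19, all called with MIRKO 4 and without it. Without MIRKO 4, Mb and Igfbp5 changed by −1.50 and −0.95 and passed narrowly (edgeR adjusted p = 0.044 for each). Asb15 changed by −0.86 ± 0.29 (edgeR adjusted p = 0.13) and Tfcp2l1 by −0.46 ± 0.50 (edgeR adjusted p = 0.67), and by −0.60 and −0.09 without MIRKO 4. By the main scaling, list medians in MIRKO were −0.75 for complex I subunits, −0.69 for mitochondrial mRNAs and −0.68 for complexes II to V. They were −0.47 for pyruvate oxidation and the TCA cycle, −0.40 for glycolysis and glycogen, 1.40 for denervation genes and 1.06 for immune markers. Of these lists, in that order, 2, 1, 1, 4 and 2 members were called lower in MIRKO, then 4 and 0 higher. The adipocyte markers, with a median of 2.16 in the difference, had a median of 0.21 in MIRKO, and the Schwann cell markers −0.08.

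**Figure D4:**
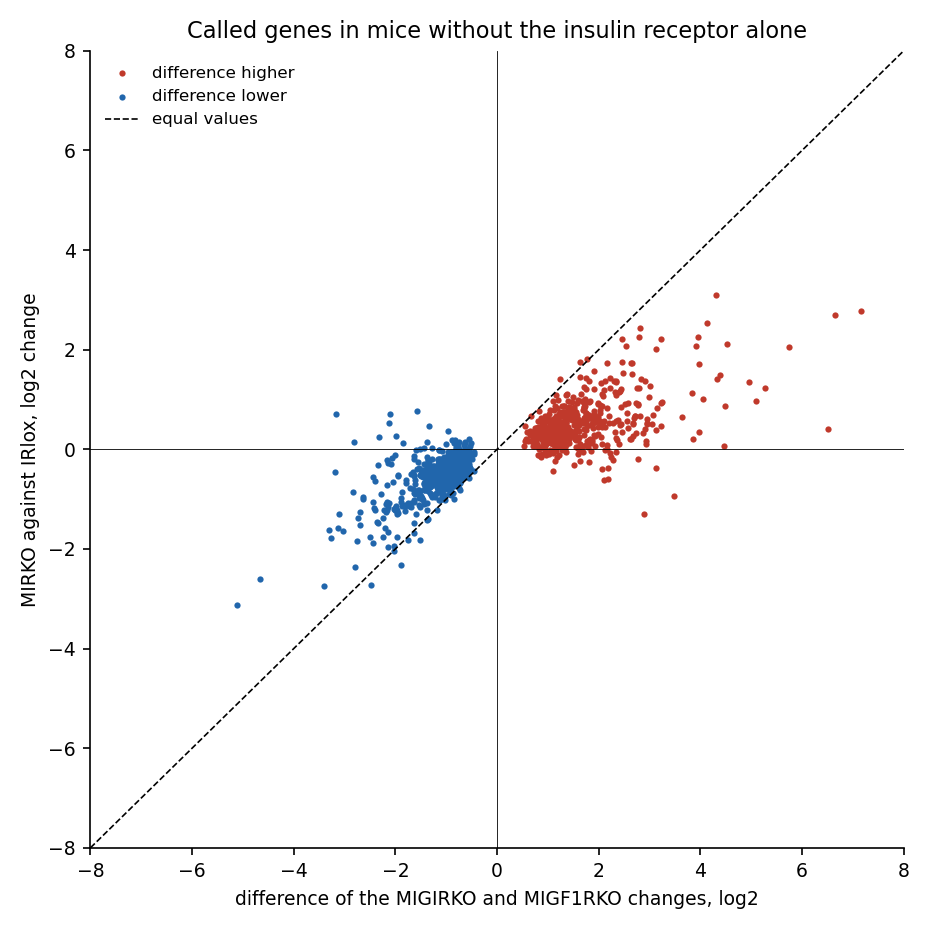
The log2 change in MIRKO over IRlox (vertical axis) against the MIGIRKO minus MIGF1RKO difference (horizontal axis) for the 1171 called genes, with red for genes called higher and blue for genes called lower in the difference. Of the 1171 points, 1102 share a sign on both axes; the genes were chosen by their values on the horizontal axis.

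At the threshold, the last genes inside were Polr2m (−0.56, adjusted p = 0.0498) and Tceal8 (1.30, adjusted p = 0.0499), and the first outside were Dbt (−0.75, adjusted p = 0.0501) and Fan1 (−0.84, adjusted p = 0.0502).

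**Figure D5:**
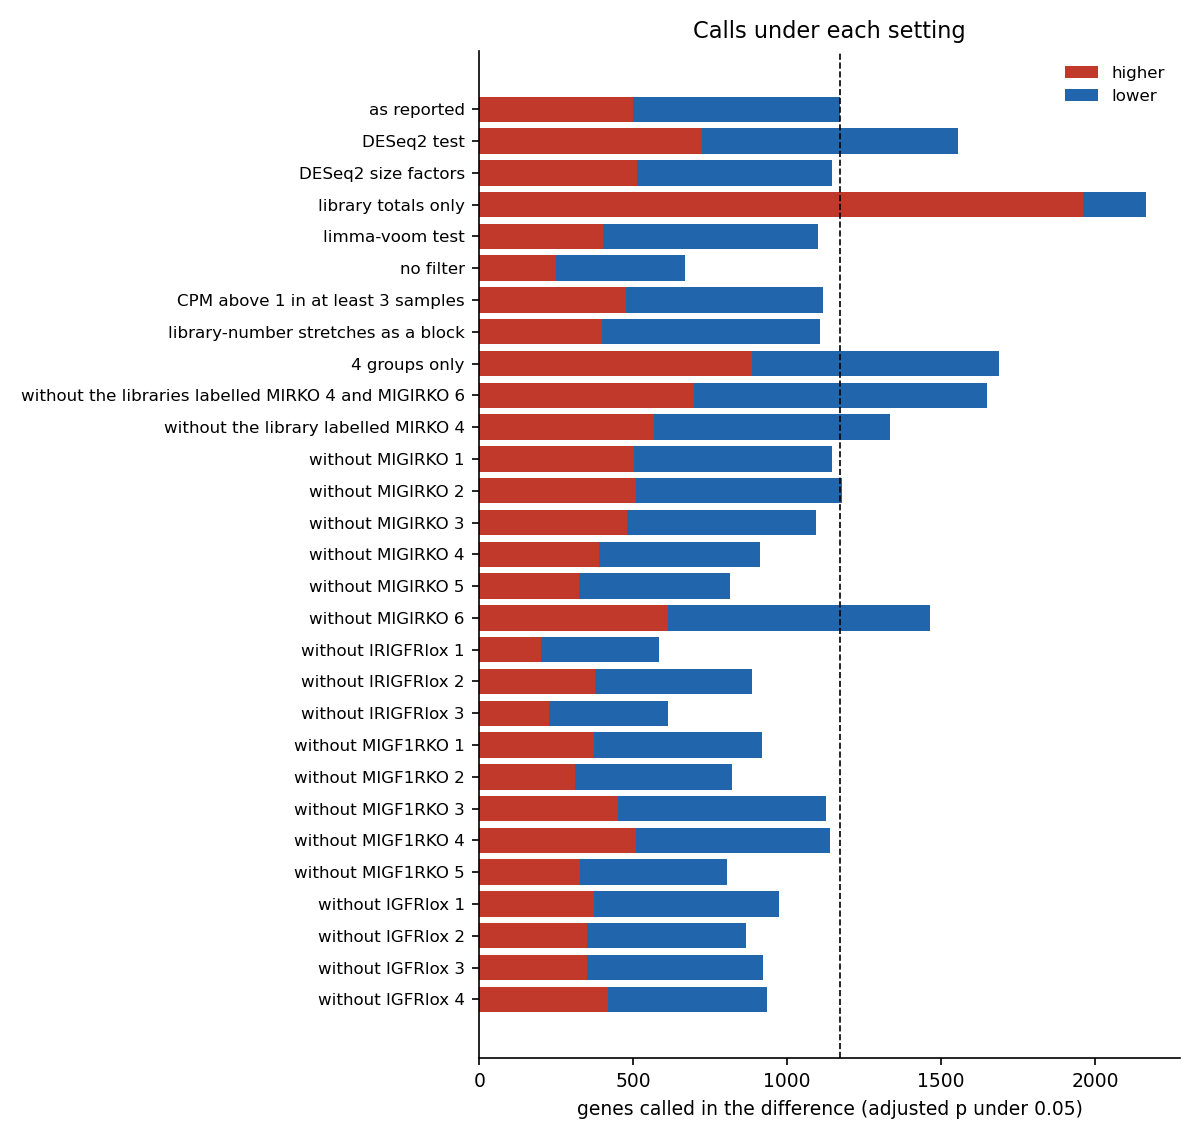
Number of genes called higher and lower in the difference under each alternative processing and with each library left out, as stacked bars, with a dashed line at 1171. Leaving out IRIGFRlox 1 or IRIGFRlox 3 gives the shortest bars of the left-out libraries, and scaling by library totals turns most calls to higher.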

How the data were processed

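Bulk RNA-seq was made with a directional kit, per the labels' protocols, and the authors aligned reads with STAR to GRCm38.p4 and counted them per gene with featureCounts, per the submitters' processing notes. The deposited values are raw counts for 46071 Ensembl gene IDs, of which 45229 matched a symbol in GENCODE M21. Tool versions, annotation release and strand setting are not given in the sources used here. Groups come from the titles, and replicate numbers count libraries within a group.

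All 34 libraries in 8 groups were fitted together with edgeR 4.0.16 in R 4.3.3 (limma 3.58.1, DESeq2 1.42.0, data.table at 1.17.8): filterByExpr, which kept 13646 genes, TMM scaling, and a robust quasi-likelihood fit with 1 mean per group. Sharing the spread over 8 groups helps the floxed groups of 3 and 4. P-values were adjusted by Benjamini-Hochberg across the 13646 genes, and a gene is called under 0.05. CPM use scaled totals, and errors are SE for log2 changes. Low counts carry counting error as well. Tested on simulated data for this difference over 13228 genes, 22.4% of 67 genes changed 2-fold, 67.2% of 67 changed 4-fold and 89.4% of 66 changed 8-fold were recovered, with 7 false calls among 13033 unchanged genes.

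Genes named are the targeted genes, the 8 largest called differences in each direction, up to 3 called members per list, up to 3 per class of calls, 8 shared changes and Nnt. Called members beyond these were named after their values were seen. Predicted genes and pseudogenes were left out of the rule (48 calls), and a few other genes are not reported here. The comparison, lists and rules were chosen with earlier results of these data known, and the motifs after the calls were seen. Figures and promoter searches used Python 3.11.15 with numpy 2.4.6, pandas 2.3.3, scipy 1.17.1 and matplotlib 3.10.9. Alternatives were other scalings, filters and tests, the 4 groups alone, 1 shared control, and the 6 stretches of library numbers as a block. These numbers are in the titles and were joined where they step by at most 2, and the labels name no batch. Each of the 18 libraries was also left out in turn, as were MIRKO 4 and the pair of MIRKO 4 and MIGIRKO 6.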

Additional observations from a re-analysis of the deposited data

Results flagged for a closer look

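Called differences between the changes of both lines numbered 501 higher and 670 lower, and 2 genes, Lrtm1 and Mpp3, were called in opposite directions. These are described above.

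Single libraries also lay far from the rest of their group, by the size of the gap relative to the group's range, in 20 of 357 combinations of a named gene and a group; chance alone gives about 1 in 20. The 3 IRIGFRlox libraries were not screened in this way. The outlying values reported here follow. In MIGIRKO 6 they were Slc15a5 (0.959 CPM), Cdh4 (5.89 CPM), Esrrb (3.83 CPM) and Amd2 (4.93 CPM), all above the other MIGIRKO libraries, and Mirg (5.34 CPM) and Sbk2 (46.6 CPM), both below them. For the 4 genes above, which were called lower in the difference, this placed MIGIRKO 6 on the side of its controls. Mirg and Sbk2 were called higher, and leaving out MIGIRKO 6 raised their differences from 3.95 and 1.32 to 4.15 and 1.48. In MIGIRKO 4 they were Sdha (801 CPM, high), Myh4 (15780 CPM, low) and Kif3c (22.1 CPM, low). In MIGF1RKO they were Slc38a1 (2.32 CPM, low), Ddit4l (543 CPM, high) and Vcam1 (9.08 CPM, low) in library 2, Mstn (19.7 CPM, low) in library 3 and Ccng1 (3226 CPM, high) in library 5. In IGFRlox they were Igfbp4 (134 CPM, high), Phgdh (6.89 CPM, high) and Kcnab1 (5.99 CPM, low) in library 1, Postn (12.1 CPM, low) in library 2, and Ulk1 (155 CPM, high) in library 3. What sets these libraries apart was not tested.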

How the results depend on the processing

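Of the 106 named genes called in the difference, 50 kept their call and direction under all 29 alternatives and none reversed. Library totals alone ended 29 of these calls, stretches of library numbers as a block 10 and leaving out MIGIRKO 6 ended 2 (C1qa and Mrc1). The difference was called for 2167 genes with library totals alone (1962 higher, 205 lower), for 668 without the filter (248 and 420), and for 4385 with 1 shared control, which compares the knockouts directly (2154 and 2231). With the 4 groups alone 1688 were called, 887 of them higher. Leaving out 1 library at a time gave 585 to 1463 calls, 201 to 612 higher and 384 to 851 lower. The higher calls numbered 201 without IRIGFRlox 1, 227 without IRIGFRlox 3, 310 without MIGF1RKO 2, 323 without MIGIRKO 5 and 327 without MIGF1RKO 5. Lower calls were 384 and 385 without IRIGFRlox 1 and 3. MIGIRKO had 7002 calls with library totals alone, and 3109 to 4642 without 1 library. MIGF1RKO had 144 with DESeq2 and 164 without MIRKO 4 and MIGIRKO 6, and 30 to 112 without 1 library: 45, 47 and 34 without MIGF1RKO 1, 2 and 3, and 30 and 41 without IGFRlox 2 and 4. MIGIRKO against MIGF1RKO had 3516 to 4475. The controls had 18 with DESeq2, 9 without the filter, 6 with the 4 groups alone and 2 to 7 without 1 library. Among the named genes, directions turned only for those not called; over all genes, 1 of the 1171 had the other sign with 1 shared control. Hba-a1 was −0.66 with limma-voom, −0.51 with 1 shared control and −0.59 to 0.72 over the left-out libraries, with the lowest without IGFRlox 1. Kcnab1 was 0.0012 with library totals, 0.066 with 1 shared control and −0.72 to 0.12 over the left-out libraries, with the highest without IRIGFRlox 1. Slc2a3 was 0.0036 with DESeq2, 0.0075 with its size factors, 0.40 with library totals, 0.034 with the block, 0.065 with 1 shared control and −0.15 to 0.10 over the left-out libraries. Nnt was 0.27 with library totals, 0.0059 with limma-voom, 0.21 with the block and −0.54 to 0.30 over the left-out libraries. The cause of these shifts was not tested, beyond the factor of scaling.

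With the 6 stretches of library numbers as a block the calls numbered 1107 (398 above 0, 709 below), and 891 of the 1171 stayed (76.1%). These stretches hold libraries of several genotypes, but not of every group. MIGIRKO lies in stretches 1 to 6, IRIGFRlox in 1, 2 and 6, MIGF1RKO in 1 to 5 and IGFRlox in 1, 4, 5 and 6. Stretch and group are thus partly confounded. The stretches were read from the numbers in the titles and are not named as batches in the labels. No paired analysis was possible because, within a group, replicate numbers only count libraries and mark no shared animal. Groups of 3 to 6 libraries left changes of 2-fold largely undetected in simulated data. Only 200 genes were changed there, all through MIGIRKO, fewer than were called here, so that recovery need not carry over to these data.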

Other observations

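The MIGIRKO minus MIGF1RKO difference was also set directly against the MIRKO change, a test added after the data were seen. Over 13646 genes, none had a difference that departed from the MIRKO change by edgeR (895 at an unadjusted p under 0.05), 1 did by DESeq2 and 0 by limma-voom. With stretches of library numbers as a block 3 genes were called, without MIRKO 4 also 3, and without both MIRKO 4 and MIGIRKO 6 51. The median SE of this comparison was 0.42, against 0.33 for the difference itself, so it is the coarser of them, and the absence of calls does not show that the MIRKO change and the difference are alike.

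In the library correlations, MIGIRKO 1 and MIGIRKO 3 were closest to MIRKO 4 (Pearson r of log2 CPM over genes 0.977 and 0.981), and MIGIRKO 6 was closest to MIRKO 3 (0.973). Nnt ranged over 32.5 to 143 CPM in MIGIRKO and 32.2 to 146 CPM in IRIGFRlox, against 111 to 169 CPM in MIGF1RKO and 121 to 176 CPM in IGFRlox, and its difference was −0.12 ± 0.63 (edgeR adjusted p = 0.93).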
